A study of Phaseolus vulgaris and Phaseolus lunatus with 12 samples.

Results

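The genes described here encode the photosystems of lima bean (*Phaseolus lunatus*) leaves and the antenna proteins that feed them with light energy. A gene was a member if the product name in the deposited table contained the words chlorophyll a-b binding, chlorophyll a/b-binding, photosystem I, photosystem II or oxygen-evolving enhancer. This rule found 99 of the 43997 genes of the table, or 0.225% of them, made up of 23 antenna genes, 29 photosystem I genes and 47 photosystem II genes. The rule used names and no measured value.

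Infested samples were detached first true leaves of lima bean, variety Peladilla, that carried 50 adult females of the spider mite *Tetranychus urticae* (London strain, reared on common bean) per leaflet and were frozen at 24 h. Control samples were detached leaves of the same variety without mites, frozen at the same time. Plants of either group were 3 weeks old. Leaf RNA was sequenced in 3 libraries per group. Separate plants are not stated in the labels, which leaves p-values as measures of the spread between libraries, possibly a technical one. The series also holds California Red Kidney, a cultivar of common bean (*Phaseolus vulgaris*), treated the same way, with 3 infested and 3 control libraries.

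Photosystem II uses light to take electrons from water, and photosystem I uses light to pass them on towards ferredoxin. Antenna proteins hold most of the chlorophyll of a leaf and belong to a nuclear gene family, with Lhca proteins around photosystem I and Lhcb proteins around photosystem II. In land plants the central chlorophyll-binding subunits of each photosystem and some small subunits, PsbZ among them, are encoded in the plastid genome. Other small subunits, the oxygen-evolving proteins and all antenna proteins are encoded in the nucleus.

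Total counts ran from 13317991 to 17255676 per lima bean library. Levels are given as CPM, counts scaled to a common library total, on library sizes scaled by TMM, and log2 fold changes are infested over control ± a standard error (n = 3 against 3). The threshold for a call was an adjusted p of 0.05 (edgeR's quasi-likelihood test, adjusted by Benjamini-Hochberg over the 18523 genes tested). Of those genes 3170 were called (17.1%), and 1788 were higher in infested leaves (9.65%) and 1382 lower (7.46%). The median log2 fold change over all tested genes was −0.01.

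Infested leaves held less photosystem and antenna transcript than control leaves. Of the 99 members, 63 had enough counts to be tested, 40 of these fell and 0 rose. The lower calls stand against the 7.46% of all tested genes that were called lower. In 28 members the fall was at least 2-fold, and the median log2 fold change of the 63 was −1.02. Members took 5.41%, 3.17% and 3.21% of all counts in infested libraries 1, 2 and 3, against 7.72%, 9.23% and 8.73% in control libraries 1, 2 and 3. The groups did not overlap, and infested library 1 lay nearest to the controls.

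Of the 36 members that were not tested, 21 had no count in any of the 6 lima bean libraries, and the most counted of the other 15 had 65 counts over all 6. None of these 36 is an antenna gene. All were named for proteins that plants encode in the plastid genome, and 24 of the 36 sit on chromosomes.

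Members were also grouped by the genome that encodes their product in plants. Of 50 members named for nuclear-encoded proteins, all of which were tested, 39 fell and 0 rose. The other 11 had log2 fold changes from −1.56 to −0.34. The median of all 50 was −1.11, and in 43 of them the highest infested library lay below the lowest control library, a pattern seen in 18.1% of all tested genes. The opposite pattern, seen in 19.7% of all tested genes, occurred in 0 of the tested members. Of 13 tested members named for plastid-encoded proteins, 1 fell and 0 rose, with a median of −0.28. This grouping was made after the product names had been seen, and the difference between the groups was not tested.

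**Figure D1:**
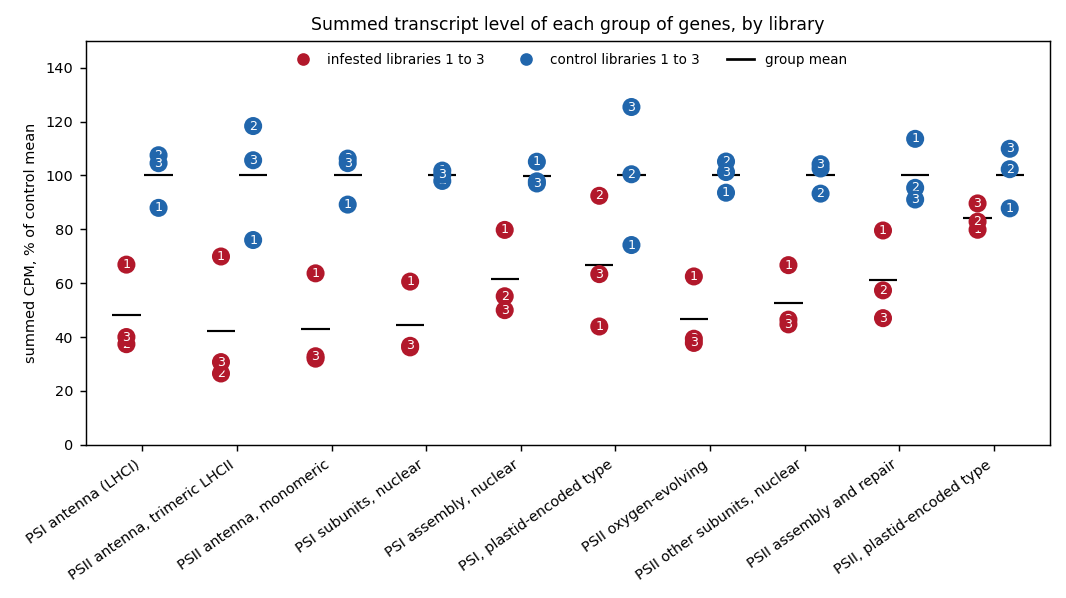
Summed CPM of each functional group of members in every lima bean library, as a percentage of the mean of the control libraries (infested left, control right, numbers mark libraries 1 to 3, bars mark group means). Infested libraries 2 and 3 lie below all control libraries in every nuclear group, infested library 1 lies between them and the controls, and the infested means of the plastid-encoded groups lie closest to 100%, although infested library 1 is at 43.9% for the plastid-encoded genes of photosystem I.

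Summed over their genes, the nuclear members of infested libraries 1, 2 and 3 reached 65.8%, 35.4% and 36.7% of the control mean. Infested library 1 was the highest of the infested libraries in 50 of these 50 genes, whereas over all tested genes it was the highest in 6434 of 18523. The plastid-named members reached 73.4%, 84.6% and 84.9% of their control mean in the same libraries, and there infested library 1 was the lowest. In bulk tissue, fewer cells of a type and less RNA per cell cannot be told apart.

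The count of nuclear members called lower depended on which libraries entered the fit. With all libraries it was 39. Omitting infested library 2 or infested library 3 gave 14 each, omitting control library 2 gave 25, and omitting control library 3 gave 21. All tested genes moved too, with 465, 417 and 738 lower calls without infested library 2, infested library 3 and control library 3. Of the 40 members that fell, 13 were called under each of the 13 other settings tried.

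The antenna genes had the highest summed level of the 3 classes. Of 23 antenna genes, 13 fell and 0 rose, and all 23 had a negative log2 fold change, with a median of −1.16. Their summed level was 31715, 14793 and 16215 CPM in infested libraries 1, 2 and 3, against 38848, 52549 and 49239 CPM in control libraries 1, 2 and 3. The infested mean was 44.6% of the control mean. This sum leaves out Pl02G0000321600.v1, an abundant gene with an antenna domain but another product name, described under Other observations. Omission of infested library 1 raised the count of 13 to 21 and gave a median of −1.61. The count was 3 when infested library 2 or infested library 3 was omitted, 7 for control library 2 and 6 for control library 3.

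**Figure D2:**
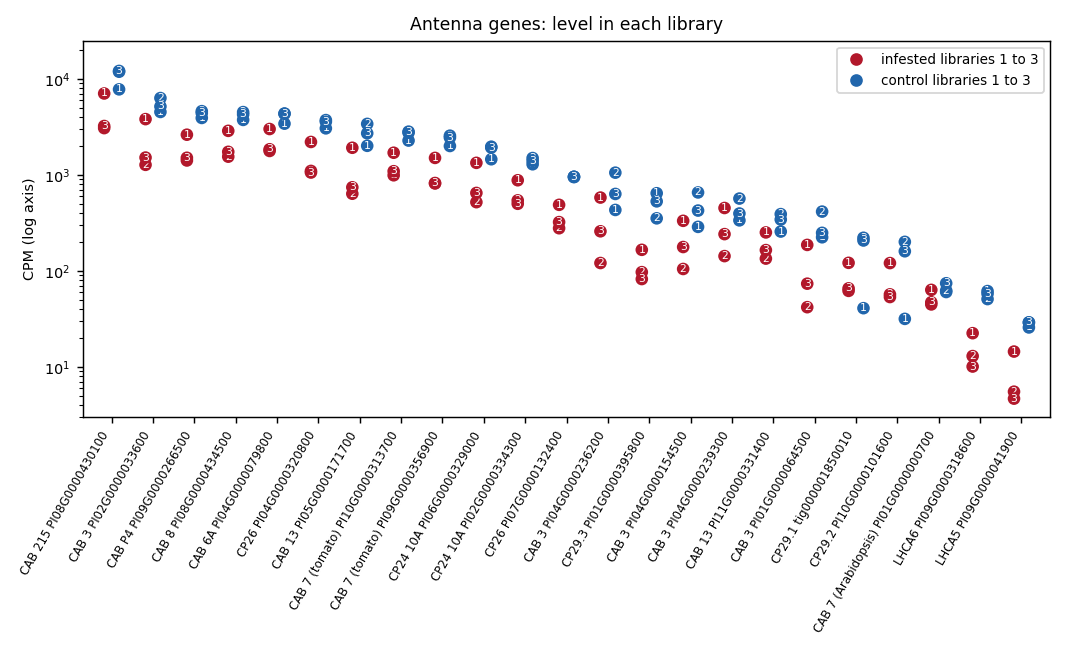
CPM of each of the 23 antenna genes in every lima bean library on a log axis, ordered by control mean (infested left, control right, numbers mark libraries 1 to 3). In most genes infested libraries 2 and 3 lie together below infested library 1, and control library 1 stands far below the other controls in CP29.1 and CP29.2.

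All 7 antenna genes of photosystem I were called lower, with a median of −1.16, and in all 7 the infested and control ranges did not overlap. Chlorophyll a-b binding protein 8 (Pl08G0000434500.v1, chromosome 8, 56964941 to 56966336, minus strand) had 2878, 1548 and 1740 CPM in infested leaves, against 3741, 4512 and 4263 CPM in control leaves. It fell by 1.02 ± 0.25 on the log2 scale (adjusted p = 0.0261). Protein 6A (Pl04G0000079800.v1, chromosome 4, 8485932 to 8488613, minus strand) had 3007, 1777 and 1850 CPM in infested leaves, against 3419, 4362 and 4334 CPM in control leaves, and fell by 0.87 ± 0.24 (adjusted p = 0.0396). Of the 7, protein 6A had the smallest fall, and infested library 1 was the nearest to the controls.

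The largest falls in this group were in its rarest members. Photosystem I chlorophyll a/b-binding protein 6 (LHCA6, Pl09G0000318600.v1, chromosome 9, 37278165 to 37279401, plus strand), which in Arabidopsis helps to attach the NDH complex to photosystem I, had 22.4, 13.0 and 10.1 CPM in infested leaves, against 61.6, 50.9 and 57.8 CPM in control leaves. It fell by 1.91 ± 0.26 (adjusted p = 0.00267), and every infested library lay below 50.9 CPM. Its partner in that role, LHCA5 (Pl09G0000041900.v1, chosen after its values were seen), had 14.4, 5.52 and 4.67 CPM in infested leaves, against 25.8, 29.1 and 29.0 CPM in control leaves, and fell by 1.77 ± 0.37 (adjusted p = 0.0148), a call lost without infested library 2 or 3. Per length, these genes were also low in control leaves, at 63.7 and 26.7 CPM per kilobase for LHCA6 and LHCA5, against 4332 for protein 8. The 3 remaining photosystem I antenna genes, P4 and 2 copies of protein 7, fell by 1.05 to 1.22. The protein 7 copy Pl10G0000313700.v1 overlaps a phosphatase gene on the opposite strand by 3515 bases, and whether counting used strand is not stated. The count of 7 was 1, LHCA6, when infested library 2 or 3 was omitted, 4 for control library 2, 3 for control library 3, and 2 with the replicate number as a block. Proteins 8 and 6A lost their calls without any of those 4 libraries, with adjusted p up to 0.111 and 0.150.

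The trimeric antenna of photosystem II, LHCII, is the most abundant antenna of leaves. Of its 8 genes, 2 fell, and the log2 fold changes of all 8 lay between −1.56 and −0.64, with a median of −1.20. The summed level was 14586, 5528 and 6408 CPM in infested leaves, against 15863, 24690 and 22041 CPM in control leaves. Infested library 1 and control library 1 were close, and the other libraries of the groups were far apart. Without infested library 1 all 8 were called lower, and the count was 0 when any other library but control library 1 was omitted. With no filter on low counts it was 5, and with a robust fit it was 1.

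Chlorophyll a-b binding protein 215 (Pl08G0000430100.v1, chromosome 8, 56709324 to 56710595, plus strand) had the highest level per length of all members, at 12081 CPM per kilobase in control leaves. It had 7052, 3073 and 3233 CPM in infested leaves, against 7787, 11887 and 12112 CPM in control leaves, and fell by 1.25 ± 0.35 (adjusted p = 0.0451). The ranges did not overlap, and the call was lost without infested library 2 or 3 or control library 2 or 3 (adjusted p up to 0.165). The most abundant protein 3 gene (Pl02G0000033600.v1, chromosome 2, 2237978 to 2238772, minus strand) had 3813, 1274 and 1517 CPM in infested leaves, against 4529, 6318 and 5167 CPM in control leaves. Its log2 fold change of −1.28 ± 0.40 was not called (adjusted p = 0.0605), although the ranges did not overlap, and without infested library 1 it was −1.94 (adjusted p = 0.000671). For protein 13 (Pl05G0000171700.v1, chromosome 5, 25284089 to 25285530, minus strand) the values were 1918, 637 and 743 CPM in infested leaves, against 2010, 3400 and 2715 CPM in control leaves. Its −1.30 ± 0.41 was not called (adjusted p = 0.0651), and without infested library 1 it was −1.98 (adjusted p = 0.00136).

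Protein 3 is encoded by 5 genes, none of them called. Their reads may be shared among near-identical copies, so their sum is the safer value. It was 5365, 1684 and 2268 CPM in infested leaves, against 5808, 9012 and 6871 CPM in control leaves. The share of the 5 taken by Pl02G0000033600.v1 was 66.9% to 75.6% in infested libraries and 70.1% to 78.0% in control libraries, ranges that overlap. Those of Pl04G0000239300.v1 did not overlap, at 8.43% to 10.65% in infested libraries and 5.77% to 6.29% in control libraries. Nor did those of Pl01G0000064500.v1, at 2.49% to 3.48% in infested libraries and 3.63% to 4.602% in control libraries. The other 2 shares overlapped, and no difference in share was tested.

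The monomeric antenna proteins CP24, CP26 and CP29 connect the LHCII trimers to the photosystem II core. Of 8 genes in this group, which includes a protein 7 gene matched to Arabidopsis, 4 fell, with a group median of −1.11, and 2 were called without infested library 2 or 3. A CP26 gene (Pl07G0000132400.v1, chromosome 7, 13179252 to 13181803, minus strand) had 488, 278 and 322 CPM in infested leaves, against 955, 949 and 957 CPM in control leaves, and fell by 1.39 ± 0.21 (adjusted p = 0.0038). The control libraries of this gene lay close together, and all infested libraries lay far below them. A CP24 gene (Pl02G0000334300.v1, chromosome 2, 39831822 to 39833133, plus strand) had 880, 543 and 500.2 CPM in infested leaves, against 1291, 1498 and 1398 CPM in control leaves. It fell by 1.12 ± 0.22 (adjusted p = 0.0119), a call lost without infested library 2 or 3 (adjusted p up to 0.0586).

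CP29.3, 1 of 3 CP29 forms in the table, had the largest fall of all members. CP29.3 (Pl01G0000395800.v1, chromosome 1, 45609391 to 45611941, minus strand) had 166, 97.0 and 82.2 CPM in infested leaves, against 645, 353 and 530.2 CPM in control leaves, a fall of 2.15 ± 0.31 (adjusted p = 0.00332). The call held without any single library, with log2 fold changes from −2.51 to −1.94. CP29.1 (tig000001850010.v1) had 121, 61.9 and 65.8 CPM in infested leaves, against 40.9, 221 and 207 CPM in control leaves. CP29.2 (Pl10G0000101600.v1) had 121, 57.0 and 53.4 CPM in infested leaves, against 31.6, 201 and 160.1 CPM in control leaves.

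CP29.1 and CP29.2, chosen after their values were seen, were thus lowest in control library 1, where CP29.3 was highest. Neither was called, with log2 fold changes of −0.91 ± 0.55 (adjusted p = 0.290) and −0.76 ± 0.59 (adjusted p = 0.416). Without control library 1, CP29.1 was called at −1.37 (adjusted p = 0.0204) and CP29.2 was at −1.23 (adjusted p = 0.0511). CP29.3 made up 40.7%, 44.9% and 40.8% of the counts of the 3 CP29 genes in infested libraries, against 89.9%, 45.5% and 59.1% in control libraries. Summed, the 3 genes had 408, 216 and 201 CPM in infested leaves, against 717, 775 and 898 CPM in control leaves, with no overlap.

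**Figure D3:**
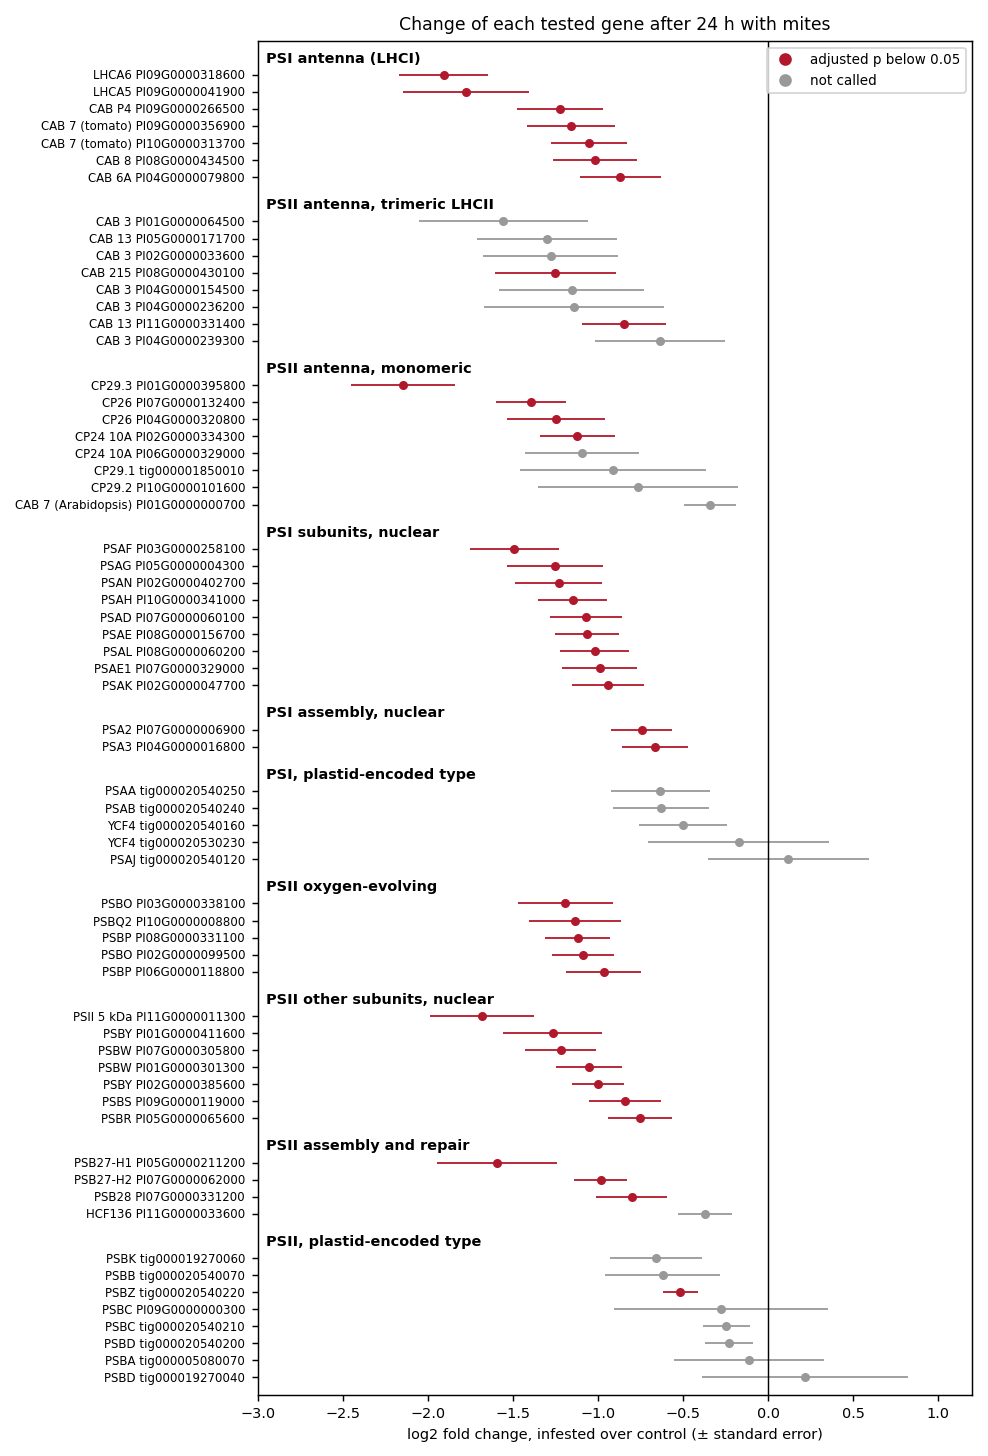
Log2 fold change, infested over control, of each of the 63 tested members with its standard error, grouped by function (red, adjusted p below 0.05; grey, not called). All 50 nuclear members lie left of 0, and 12 of the 13 plastid-named members are grey.

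The nuclear subunits of photosystem I fell together. All 9 genes named for them were called lower, with log2 fold changes from −1.49 to −0.94 and a median of −1.07. None of the infested ranges overlapped the control ranges. The 9 include Pl08G0000156700.v1, whose domain goes against its product name, as described below. Over all 29 photosystem I members, 11 of 16 tested fell and 0 rose, with a median of −0.97. The summed level of the 9 subunits was 7534, 4498 and 4570 CPM in infested leaves, against 12656, 12178 and 12463 CPM in control leaves. The count of 11 was 4 when infested library 2 was omitted, 3 for infested library 3 and 7 for control library 3, and omitting infested library 1 gave a median of −1.24.

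Subunit II (PsaD, Pl07G0000060100.v1, chromosome 7, 4726147 to 4727093, plus strand) helps to dock ferredoxin on the stromal side. It had 1574, 962 and 985 CPM in infested leaves, against 2436, 2605 and 2369.9 CPM in control leaves, and fell by 1.07 ± 0.21 (adjusted p = 0.0120). Subunit III (PsaF, Pl03G0000258100.v1, chromosome 3, 30996451 to 30997526, minus strand) takes part in the docking of plastocyanin on the lumen side and fell the most of the 9. It had 1087, 673 and 608 CPM in infested leaves, against 2807, 1796 and 2059 CPM in control leaves (−1.49 ± 0.26, adjusted p = 0.00791). Control library 1 was the highest for PsaF, unlike in most antenna genes.

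Subunits VI and XI, PsaH and PsaL, lie where LHCII can bind photosystem I. PsaH (Pl10G0000341000.v1, chromosome 10, 52663132 to 52665054, plus strand) had 1243, 797 and 776 CPM in infested leaves, against 2013, 2105 and 2135 CPM in control leaves, and fell by 1.15 ± 0.20 (adjusted p = 0.00782). It overlaps a guanine nucleotide exchange factor gene on the opposite strand by 454 bases. PsaL (Pl08G0000060200.v1, chromosome 8, 5014193 to 5015293, plus strand) had 1292, 807 and 879 CPM in infested leaves, against 1807, 2059 and 2173 CPM in control leaves, and fell by 1.02 ± 0.20 (adjusted p = 0.0120). The calls of PsaD and PsaL were lost without infested library 2 or 3 (adjusted p up to 0.0587 and 0.0625), and those of PsaF and PsaH were kept without any single library.

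A gene named as subunit IV (Pl08G0000156700.v1, chromosome 8, 15755684 to 15761108, minus strand) carries a Low PSII accumulation domain in the table, against its product name. It had 37.1, 27.6 and 20.7 CPM in infested leaves, against 59.6, 60.2 and 59.1 CPM in control leaves, and fell by 1.07 ± 0.19 (adjusted p = 0.00782). The groups did not overlap. The photosystem I assembly proteins PSA2 and PSA3 were also called lower, at −0.74 ± 0.18 (adjusted p = 0.0269) and −0.67 ± 0.19 (adjusted p = 0.0473). Neither was called without infested library 2, infested library 3, control library 2 or control library 3, and 1 was called without control library 1 or with the replicate block.

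**Figure D4:**
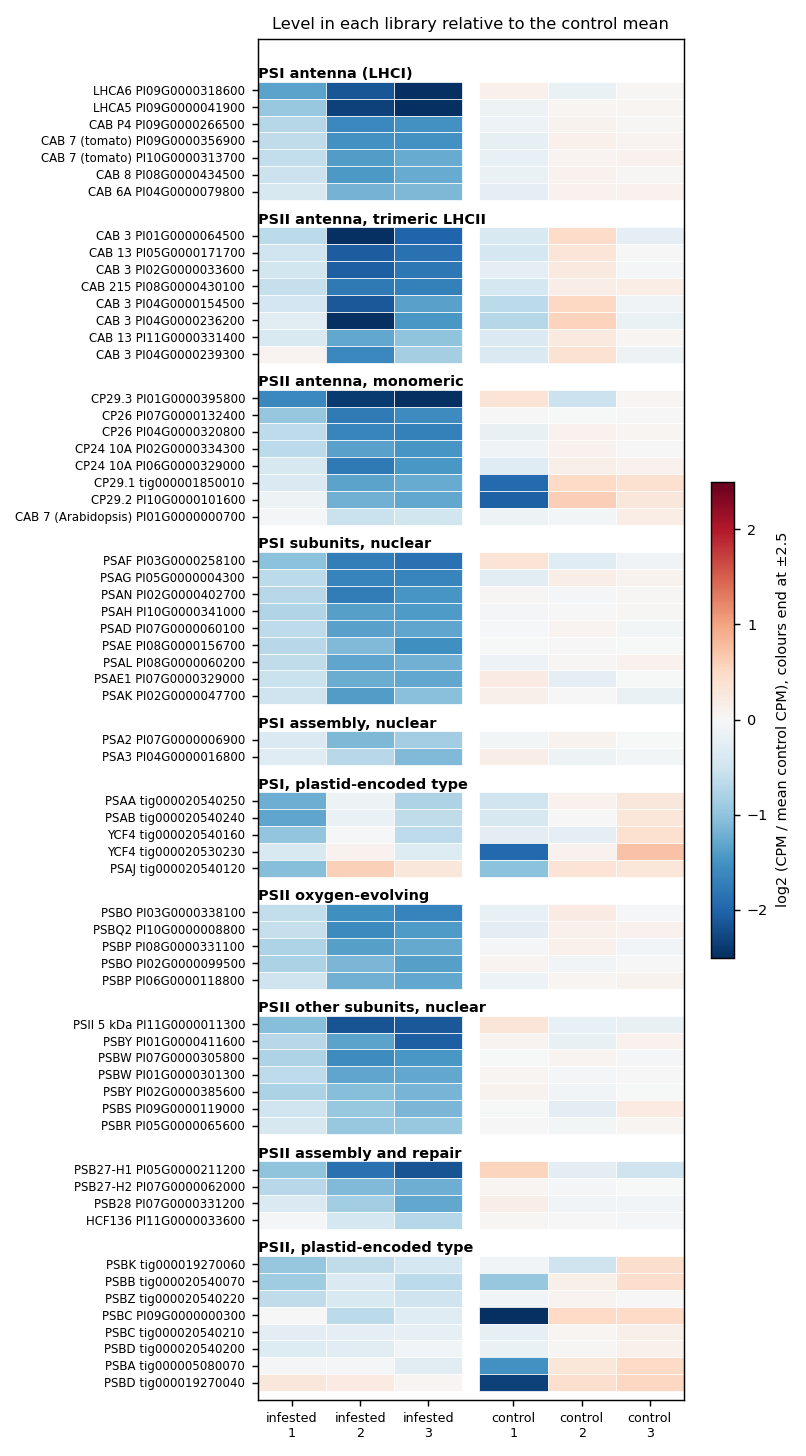
Level of each tested member in each lima bean library relative to its control mean, as log2 of the CPM ratio (blue lower, red higher, infested libraries left, control libraries right). The blue of infested libraries 2 and 3 runs through all nuclear groups and fades in the plastid-encoded groups, and control library 1 is blue in CP29.1, CP29.2 and several scarce plastid-named genes.

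In photosystem II the same division appeared. Of 47 members 24 were tested, 16 fell and 0 rose, with a median of −0.90. Omitting infested library 2 or infested library 3 gave 8 lower calls, and omitting control library 3 gave 9. The oxygen-evolving enhancer proteins, which shield the manganese cluster where water is split, were called lower in 5 of 5 genes, with a median of −1.12. The count was 2 with the replicate block or when infested library 2, infested library 3, control library 2 or control library 3 was omitted. Their sum was 7536, 4749 and 4561 CPM in infested leaves, against 11284, 12678 and 12209 CPM in control leaves.

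Enhancer protein 1 (PsbO, Pl02G0000099500.v1, chromosome 2, 8130330 to 8132001, minus strand) had 1973, 1549 and 1323 CPM in infested leaves, against 3599.6, 3233 and 3477 CPM in control leaves. It fell by 1.09 ± 0.18 (adjusted p = 0.00636). Enhancer protein 2 (PsbP, Pl08G0000331100.v1, chromosome 8, 48289943 to 48292250, minus strand) had 1353, 894 and 946 CPM in infested leaves, against 2235, 2534 and 2161 CPM in control leaves, and fell by 1.12 ± 0.19 (adjusted p = 0.0069). These calls held without any single library, unlike those of the second PsbO and PsbP genes (Pl03G0000338100.v1 and Pl06G0000118800.v1), and neither gene's ranges overlapped. Enhancer protein 3-2 (PsbQ, Pl10G0000008800.v1, chromosome 10, 817311 to 824615, minus strand) had 1585, 791 and 893 CPM in infested leaves, against 1987, 2628 and 2568 CPM in control leaves, and fell by 1.14 ± 0.27 (adjusted p = 0.0248). The PsbQ call was lost without infested library 2 or 3 or control library 2 or 3 (adjusted p up to 0.109).

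The 7 other nuclear subunits of photosystem II were all called lower, from −1.68 to −0.75, and 4 were called without infested library 2 or control library 3. The 10 kDa polypeptide (PsbR, Pl05G0000065600.v1, chromosome 5, 6089358 to 6091328, plus strand), which helps to hold the oxygen-evolving proteins, had 2740, 1897 and 1901 CPM in infested leaves, against 3686, 3515 and 3819.5 CPM in control leaves. Its fall of 0.75 ± 0.19 (adjusted p = 0.0289) was the smallest of the 7, and its call was lost without any 1 library other than infested library 1 (adjusted p up to 0.118). A gene for the core complex proteins psbY (Pl02G0000385600.v1, chromosome 2, 44777104 to 44777646, plus strand) had 1021, 841 and 784 CPM in infested leaves, against 1877, 1660 and 1755 CPM in control leaves, and fell by 1.00 ± 0.15 (adjusted p = 0.00418). Its call held without any single library. The 5 kDa protein (Pl11G0000011300.v1), chosen after its values were seen, fell the most of the 7, by 1.68 ± 0.31 (adjusted p = 0.00902). PsbS, the 22 kDa protein that switches on the safe release of excess light energy as heat, had 1503, 1100.5 and 958 CPM in infested leaves, against 2110.0, 1771 and 2501 CPM in control leaves (Pl09G0000119000.v1, chosen after its values were seen, −0.84 ± 0.21, adjusted p = 0.0295). The PsbS call was lost with the replicate block and without infested library 2, infested library 3, control library 1 or control library 3.

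Assembly and repair factors of photosystem II were low throughout, and 3 of 4 fell, with 1 call left without infested library 2 or 3. PSB27-H2 (Pl07G0000062000.v1, chromosome 7, 4859563 to 4860724, minus strand), which in Arabidopsis acts in the processing of the D1 precursor, had 15.1, 11.3 and 10.4 CPM in infested leaves, against 25.1, 23.5 and 24.0 CPM in control leaves. It fell by 0.98 ± 0.16 (adjusted p = 0.00511), with no overlap and with its call held without any single library. PSB27-H1 fell by 1.59 ± 0.35 (adjusted p = 0.0187) and PSB28 by 0.80 ± 0.21 (adjusted p = 0.0344), and both lost their calls without infested library 2 or 3, PSB28 also without any 1 control library. The stability factor HCF136 was not called, at −0.37 ± 0.16 (adjusted p = 0.150).

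The plastid-named members hold the reaction centres themselves. The D2 protein gene (tig000020540200.v1, chloroplast contig 1, 77860 to 78921, plus strand) had 970, 1014 and 1159 CPM in infested leaves, against 1100.1, 1247 and 1337 CPM in control leaves. CP43, an inner antenna of the core (tig000020540210.v1, 79067 to 80290 on the same contig and strand), had 788, 801 and 818 CPM in infested leaves, against 819, 979 and 1057 CPM in control leaves. Their log2 fold changes were −0.23 ± 0.14 (adjusted p = 0.308) and −0.25 ± 0.14 (adjusted p = 0.257), neither of them called. Ranges overlapped for D2 and did not overlap for CP43.

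The P700 apoproteins A1 and A2 bind the chlorophylls of the photosystem I reaction centre. A2 (PsaB, tig000020540240.v1, 82656 to 84860 on the minus strand of that contig) had 94.5, 209 and 151 CPM in infested leaves, against 176, 237 and 291 CPM in control leaves. A1 (PsaA, tig000020540250.v1, 84886 to 87186, minus strand) had 68.0, 147 and 92.8 CPM in infested leaves, against 113, 172 and 193 CPM in control leaves. Each had a log2 fold change of −0.63 that was not called (adjusted p = 0.165 for A2 and 0.170 for A1), and the groups overlapped because infested library 2 reached the control range. Here infested library 1 was the lowest library, where it was the highest infested library for the nuclear genes.

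PsbZ (tig000020540220.v1, chloroplast contig 1, 80941 to 81129, plus strand) was the plastid-named member that fell, by 0.52 ± 0.10 (adjusted p = 0.0125). It had 59.1, 69.4 and 64.7 CPM in infested leaves, against 87.0, 97.2 and 92.3 CPM in control leaves, with no overlap, and its call was lost without infested library 3. The remaining plastid-named members averaged at most 95.7 CPM in control leaves, and 2 had a positive log2 fold change, of 0.12 and 0.22. Without control library 1 the median of all 13 tested plastid-named members was −0.62 in place of −0.28, and 2 were called lower, PsbZ and CP47.

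Plastid-named members made up 3.69%, 7.59% and 7.36% of all member counts in infested libraries, against 3.16%, 3.18% and 3.60% in control libraries. D1, the reaction centre protein that is replaced most often during repair, was listed at 6.13, 6.12 and 5.19 CPM in infested leaves, against 2.23, 7.78 and 8.98 CPM in control leaves (tig000005080070.v1, chosen after its values were seen). How the authors treated reads that map to several plastid copies is not given in the sources used here, and the level of these genes is limited by it.

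Other genes of photosynthesis were set beside the members by words in their product names. Their counts stand beside the 7.46% of all tested genes called lower and the 9.65% called higher. Of 42 tested electron transport genes, which carry electrons between the photosystems or make ATP, 22 fell and 2 rose. Those on chromosomes gave all of these calls (36 tested, median −1.07), and 0 of 6 on chloroplast contigs were called (median −0.37). The chromosomal genes include 18 named for subunits of the NDH complex, to which LHCA5 and LHCA6 bind photosystem I in Arabidopsis. Of these 13 fell, with a median of −1.16. They were taken by name and location, so copies of plastid genes on chromosomes may be among them. Neither the split by location nor this subset was among the planned comparisons. The subunit B 4 gene (Pl09G0000265900.v1) had 14.5, 8.84 and 6.59 CPM in infested leaves, against 46.1, 37.1 and 34.8 CPM in control leaves, and fell by 1.98 ± 0.26 (adjusted p = 0.00244).

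The chloroplast signal recognition particle carries antenna proteins to the thylakoid membrane. Of 5 genes of this route 2 fell, beside the 7.46% of all tested genes called lower. The 2 were SRP43, by 1.22 ± 0.26 (adjusted p = 0.0171), and SRP54, by 0.60 ± 0.16 (adjusted p = 0.0360). SRP43 had 34.8, 17.9 and 21.5 CPM in infested leaves, against 67.5, 62.6 and 42.0 CPM in control leaves, and the groups did not overlap. FtsY had −0.35 ± 0.13, and the inserting proteins ALBINO3-like 1 and 2 had −0.37 ± 0.18 and −0.05 ± 0.14, none of them called (adjusted p from 0.0945 to 0.848). Among 26 tested state transition kinases, thylakoid proteases and related genes, 3 fell and 0 rose, beside the 7.46% of all tested genes called lower, and the 3 included an FtsH protease at −0.77 ± 0.16 (adjusted p = 0.0164).

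Transcription factors known to act on photosynthesis genes included GLK1, an activator of antenna genes in Arabidopsis. GLK1 (Pl11G0000264600.v1) had 63.6, 56.6 and 38.7 CPM in infested leaves, against 140, 132 and 129 CPM in control leaves. It fell by 1.33 ± 0.17 (adjusted p = 0.00223), and every infested library lay below 129 CPM. A GATA factor 22 gene (Pl09G0000054900.v1) fell by 2.33 ± 0.32 (adjusted p = 0.00264), and 5 of 11 tested genes of this list fell and 0 rose, beside the same 7.46%. Log2 fold changes in this list were negative in 7 genes and positive in 4, with a median of −0.38. Of 23 tested clock genes, 6 fell and 0 rose, with a median of −0.35, also beside 7.46% of all tested genes, and the 6 included APRR5 at −0.86 ± 0.13 (adjusted p = 0.00429).

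Marker lists of leaf cell types were set beside the members, and no share of cells was estimated. Among all tested genes 7.46% were called lower and 9.65% higher, or 17.1% in either direction. Of 13 mesophyll markers (Rubisco small chain, Rubisco activase and chloroplast carbonic anhydrase) 5 fell and 1 rose. Log2 fold changes were negative in 9 of the 13 and positive in 4. The gene that rose, a carbonic anhydrase, had 17.7, 11.8 and 23.1 CPM in infested leaves, against 0, 0.631 and 0 CPM in control leaves. The mesophyll markers summed to 9288, 6109 and 4793 CPM in infested leaves, against 12769, 14534 and 15737 CPM in control leaves. Of 3 tested guard cell markers 0 were called, with sums of 86.7 to 100.2 CPM in infested libraries and 86.0 to 106 CPM in control libraries. Of 12 tested vascular markers 0 were called, and they summed to 230.1, 607 and 704 CPM in infested leaves, against 827, 421 and 316 CPM in control leaves. Among these 12, 9 had a negative log2 fold change and 3 a positive one, with a median of −0.21. Infested library 1, the highest infested library for nuclear members, had the lowest vascular sum. Control library 1, the lowest control library for the antenna sum, had the highest vascular sum. By single gene, infested library 1 was the highest infested library in 4 of the 12 tested vascular markers. Control library 1 was the highest control library in 7 of the 12. The 4 epidermis markers were near 0 in all 6 libraries. The part of the cell make-up in the falls of the members was not tested.

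In common bean the same words found 8 genes, and protein 7 was the only antenna gene among them (26.2 CPM in control leaves). None of the 8 was named as an oxygen-evolving enhancer, and they do not stand for the whole family in that species. Of these 7 were tested and 0 were called by edgeR's quasi-likelihood test (smallest adjusted p = 0.622, and 0 at an unadjusted p below 0.05), where 0.976% of 19360 tested genes were called and 0.0413% were called lower. All 7 had negative log2 fold changes, from −0.56 to −0.09, with a median of −0.14. PsaF (PHAVU_003G186300g) had 662, 851 and 1490.3 CPM in infested leaves, against 933, 1011 and 1537 CPM in control leaves, with overlapping groups. Its log2 fold change was −0.21 ± 0.29, beside −1.49 ± 0.26 for the lima bean gene of the same product name.

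**Figure D5:**
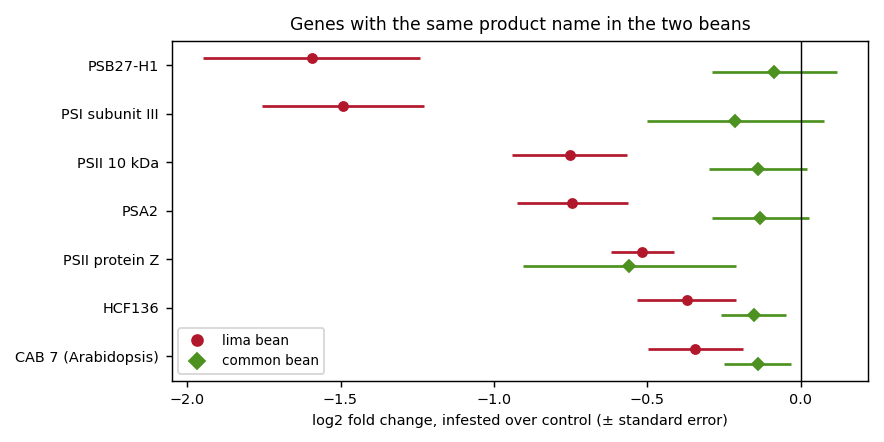
Log2 fold change, infested over control, with its standard error for the 7 genes tested in common bean, beside the lima bean gene paired by product name (lima bean circles, common bean diamonds). For protein 7 the lima bean gene matched to Arabidopsis was used. Common bean values lie between −0.56 and −0.09, and those of lima bean between −1.59 and −0.34.

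For 6 of the 7 shared product names the lima bean value was the more negative, the exception being PsbZ at −0.52 ± 0.10 in lima bean and −0.56 ± 0.35 in common bean. That pair is not like for like. The lima bean PsbZ gene lies on chloroplast contig 1 and averaged 92.2 CPM in control leaves. The common bean gene lies on chromosome 10 and averaged only 2.76 CPM in control leaves. The tables share no gene identifiers, so pairs rest on product names. For protein 7, a name that 3 lima bean genes carry, the lima bean gene matched to Arabidopsis was used. The other 2 lima bean genes of that name, matched to tomato, had log2 fold changes of −1.16 and −1.05. The HCF136 names differ in wording between the tables, and the difference between the species was not tested for these genes.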

How the data were processed

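RNA from lima bean and common bean leaves, with and without spider mites for 24 h, was sequenced in 3 libraries per group. The values are raw counts per gene, as deposited by the authors in a table per species. HISAT2, featureCounts and DESeq2 are listed without versions or roles, per the submitters' processing notes, and neither the genome build nor the use of strand is given in the sources used here. Coordinates are those of the deposited table.

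Each species was fitted on its own with edgeR 4.0.16 (R 4.3.3, limma 3.58.1): filterByExpr, TMM scaling, the quasi-likelihood test on treatment, and Benjamini-Hochberg adjustment over all genes tested, with calls at an adjusted p below 0.05. The standard error is the size of the log2 fold change divided by the square root of F. CPM per kilobase used the deposited gene length. The fit was tested on simulated data. DESeq2 1.42.0 and other scalings, no filter, a robust fit, a replicate block and leaving out each library were alternatives. Total counts were 13317991 to 17255676 per lima bean library, and members with few counts have the least precise values.

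The members and lists were chosen with earlier results of these data known, and some words of the clock list were corrected after the matching names had been seen. In each class the genes named with all values were the 4 with the highest level per length, the 4 called genes with the smallest p, any called higher, and the 2 most abundant not called. Other lists gave at most the 2 called genes with the smallest p, or every gene where a list had 5 or fewer. Any other gene named was chosen after its values were seen. Sequences were not analysed here.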

Additional observations from a re-analysis of the deposited data

How the results depend on the processing

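Across 24 named members and 13 other settings, 274 of 312 values kept their direction and side of the threshold, 33 kept their direction but lost the call, 5 gained it and 0 reversed. The 24 were picked partly by small p in these same data. They also include genes not called with all libraries, which count as kept where they stayed not called. The tally therefore does not describe the other members. Of all 40 members that fell, 13 were called under each of the 13 other settings. Leaving out 1 library at a time moved counts the most. Lower calls then ran from 3 to 21 for antenna genes, 3 to 11 for photosystem I, 8 to 17 for photosystem II, 14 to 48 for nuclear members and 0 to 2 for plastid-named members. Over all tested genes they ran from 417 to 1533 lower and from 900 to 1671 higher. Medians ran from −1.61 to −1.001 for antenna genes and from −1.24 to −0.87 for photosystem I.

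With the replicate number as a block, lower calls were 5 for antenna genes, 23 for nuclear members, 8 for photosystem I, 11 for photosystem II and 571 over all genes, with 1046 higher over all genes. The labels state no pairing of libraries by number. Correlations of deviations were −0.22, 0.049 and −0.184 at the same number and ran from −0.225 to 0.358 at different numbers. With so few libraries these values cannot show whether the numbers pair them. Among the 24, the block ended the calls of proteins 8, 6A and 215, PsaL, PsbR and PsbQ, and it also ended calls of other members, such as P4, both photosystem I protein 7 genes, PSA2 and PsbS. Library totals gave a call to protein 3 (adjusted p = 0.0459), and no filter on low counts to proteins 3 and 13 (0.0416 and 0.0457). The causes were not tested.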

Other observations

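Several genes with antenna or photosystem domains lie outside the product name rule, and they were chosen after their values were seen. Pl02G0000321600.v1 joins a pentatricopeptide repeat product name to a chlorophyll A-B binding domain. It had 14886, 10530.2 and 10635 CPM in infested leaves, against 17932, 18720 and 18597 CPM in control leaves. The ranges did not overlap, and the log2 fold change of −0.62 ± 0.22 was not called (edgeR adjusted p = 0.0872). With this gene added, members took 6.85%, 4.23% and 4.26% of all counts in infested libraries. In control libraries they then took 9.54%, 11.15% and 10.57%.

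The small photosystem II subunit PsbX was named by a domain alone. Pl09G0000321500.v1 had 388, 199 and 202 CPM in infested leaves, against 522, 704 and 696 CPM in control leaves, and fell by 1.28 ± 0.27 (edgeR adjusted p = 0.0157). The PsbX-domain genes Pl01G0000045300.v1 and Pl03G0000204300.v1 also fell, by 0.98 ± 0.20 (adjusted p = 0.0129) and 1.33 ± 0.28 (adjusted p = 0.0158), and infested and control ranges did not overlap in any of these PsbX-domain genes.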
